A study of Mus musculus with 24 samples.

Results

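The immediate early response genes of this report were Fos, Fosb, Jun, Junb, Egr1, Egr2, Atf3, Ier2, Dusp1, and Ier3, taken as a list of 10 names from 32451 genes or transcripts on the array. A probe belonged to the list when its RefSeq accession led to one of these symbols, and each gene had 1 probe. Their mRNA was measured in CD11b+ cells from the spleen and the bone marrow of mice, either without infarction (control) or 1, 2, and 4 weeks into recovery from myocardial infarction (MI). CD11b, the product of Itgam, is an integrin chain carried by neutrophils, monocytes, and macrophages. The 3 genotypes were WT, HDC-KO, and STAT6-KO. HDC-KO mice lack histidine decarboxylase, which makes histamine, and STAT6-KO mice lack a transcription factor that acts downstream of interleukin-4 and interleukin-13. The mice of the arrays were male per the labels, and the methods of the study give a Balb/C background and an age of 10 weeks for its mice. Neither the labels nor the methods say which exons the knockouts remove.

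Immediate early genes are switched on within minutes of a stimulus without new protein synthesis, mostly through MAP kinases, serum response factor with its ETS partners, and CREB. Many of their mRNAs are short-lived, so that their level follows recent stimulation of the cell. In myeloid cells they respond to cytokines, growth factors, microbial products, adhesion, and handling. Fos, Fosb, Jun, and Junb encode subunits of the AP-1 transcription factor, Atf3 encodes a related leucine zipper factor induced by stress, and Egr1 and Egr2 encode zinc finger factors. Dusp1 encodes a phosphatase that switches MAP kinases off, Ier3 a regulator of cell survival, and Ier2 a small nuclear protein.

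For every genotype and tissue, a time point was represented by 1 array of cells pooled from 5 mice, so the spread between mice was not measured. Of the 24 arrays 22 were used, 11 in each tissue. The 2 others, STAT6-KO bone marrow at 1 week and the HDC-KO spleen control, had tables with too few spots to be used. Values are log2 of the spot signal minus the 75th percentile of the same array, so that a difference of 1 is a doubling. The 75th percentile lay between 927.9 and 2461.1 on the linear scale, and the number of arrays limits the precision. All 10 probes were well above background on 22 of 22 arrays. Of all spots that were not controls, 70.4% to 79.8% were well above background. The lowest shares of the tissues were those of WT MI 1 week, 70.4% in spleen and 71.3% in bone marrow. The 4 arrays of a slide were the time points of a single genotype in a single tissue, always in the same order of positions. Within a tissue, slide and genotype cannot be told apart, nor can position and time after MI. A difference between the tissues is always a difference between slides as well. Hdc ranged from 4.32 to 5.51 in WT and from 1.67 to 2.78 in HDC-KO, without overlap. Stat6 ranged from 2.38 to 3.70 in WT and from 1.76 to 2.44 in STAT6-KO, with an overlap, and whether its probe lies in the deleted part is not known here. Fewer cells of a type and less RNA per cell cannot be told apart in these pools.

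The promoters of 5 members that carry the short motif TGACG upstream of their start site are shown. Egr2 carried TGACG too and is not shown. RefSeq windows around the annotated starts in the assembly GRCm38.p6 were searched, and 8 of the 10 members had a window. Egr1 and Ier2 had none. The windows were short, such as chr12:85473640-85473939 for Fos, and sites outside them were not searched. The stretches below lie upstream of the start site and are written 5′ to 3′ on the strand of the gene. Capitals mark TGACG, the core of the CREB site, on either strand, the full palindrome TGACGTCA in Dusp1, the EGR motif GCGNGGGCG in Fosb, and TATAA in Fos. They are Fos at chr12:85473740-85473889 (plus strand), Fosb at chr7:19310046-19310195 (minus strand), Junb at chr8:84978749-84978898 (minus strand), Atf3 at chr1:191183334-191183483 (minus strand), and Dusp1 at chr17:26508473-26508672 (minus strand).
Fos: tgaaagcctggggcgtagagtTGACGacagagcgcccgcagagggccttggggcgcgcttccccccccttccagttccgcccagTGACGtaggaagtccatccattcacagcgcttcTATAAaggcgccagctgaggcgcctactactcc
Fosb: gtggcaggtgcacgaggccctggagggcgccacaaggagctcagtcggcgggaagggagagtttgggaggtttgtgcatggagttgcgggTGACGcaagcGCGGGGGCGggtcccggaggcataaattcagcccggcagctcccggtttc
Junb: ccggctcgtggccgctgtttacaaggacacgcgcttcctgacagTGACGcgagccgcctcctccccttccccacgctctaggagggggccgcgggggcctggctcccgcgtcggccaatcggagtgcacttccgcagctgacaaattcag
Atf3: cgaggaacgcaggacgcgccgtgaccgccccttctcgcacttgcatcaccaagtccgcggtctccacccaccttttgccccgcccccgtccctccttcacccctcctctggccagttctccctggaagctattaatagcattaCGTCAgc
Dusp1: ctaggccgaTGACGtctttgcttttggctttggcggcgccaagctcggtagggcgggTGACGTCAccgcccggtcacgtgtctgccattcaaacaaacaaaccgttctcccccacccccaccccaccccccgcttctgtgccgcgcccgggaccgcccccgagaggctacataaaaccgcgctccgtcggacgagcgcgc
TGACG was present in the windows of 6 of the 8 members, namely Fos, Fosb, Junb, Egr2, Atf3, and Dusp1, against 23.0% of 27025 genes and 20.8% of 32851 windows. Counted from the start site, it began at -129 and -66 in Fos, at -60 in Fosb, and at -106 in Junb. In Atf3 it lay on the opposite strand, from -7 to -3. Dusp1 held TGACG at -191 and TGACGTCA, which contains TGACG on both strands, at -143, a palindrome found in 1.79% of all windows. The EGR motif was found in the window of Fosb and in 5.55% of all windows. A CArG box, the site of serum response factor, was found in 4 of the 5 windows of Egr2 and in 1.63% of all windows. The AP-1 motif TGANTCA was found in 0 of the 8 members, against 8.97% of 27025 genes. TATAA was found in 4 members, Fos, Junb, Egr2, and Ier3, against 28.0% of genes. In Junb it lay downstream of the start, from 1 to 5. These matches describe letters in a window, and binding was not measured.

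Among the AP-1 subunits, Fos (chromosome 12, 85473890 to 85477274 in GRCm38.p6) varied least. It lay between 4.64 and 6.32 in spleen, with a median of 5.14, and between 4.69 and 6.24 in bone marrow, with a median of 5.32. Its highest arrays were STAT6-KO spleen MI 4 weeks and WT bone marrow MI 1 week, and the ranges of the tissues covered each other almost fully. Fosb (chromosome 7, 19302696 to 19310118) covered a far wider range, from -1.55 in HDC-KO bone marrow MI 2 weeks to 2.73 in STAT6-KO spleen MI 4 weeks. This is a 19.5-fold range on the linear scale. The median of Fosb was 0.96 in spleen and -0.31 in bone marrow. Jun (chromosome 4, 95049036 to 95052222) had a spleen median of 4.87 with its highest array in WT MI 4 weeks, and lay between 4.05 and 5.72 in bone marrow, where 7 of the 11 arrays were under 4.5. Junb (chromosome 8, 84976909 to 84978748) had its highest spleen value at 2.46, in WT MI 4 weeks, and its lowest value of all at -0.12, in STAT6-KO bone marrow control.

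Atf3 (chromosome 1, 191170296 to 191183333) had the widest linear range of the 10 genes, 20.4-fold. It ran from 0.25 in STAT6-KO bone marrow control to 4.61 in WT bone marrow MI 4 weeks, and the spleen arrays lay between 1.77 and 4.59. Egr1 reached 6.34 in STAT6-KO spleen MI 4 weeks, and its lowest value was 3.52 in HDC-KO bone marrow MI 2 weeks. Egr2 (chromosome 10, 67534469 to 67542188) lay between -0.50 and 2.00 in spleen, with a median of 1.05, and between -1.68 and 0.55 in bone marrow, with a median of -0.47. The tissue ranges of Egr2 overlapped only in part, since 2 of the 11 spleen arrays, WT and HDC-KO at 1 week, were below the highest bone marrow array. Ier2 (chromosome 8, 84661331 to 84662852) went the other way, with a median of -0.10 in spleen and 1.22 in bone marrow. Dusp1 (chromosome 17, 26505591 to 26508472) lay between 4.27 and 6.10 in spleen and between 4.37 and 6.28 in bone marrow. Ier3 (chromosome 17, 35821713 to 35822911) had the narrowest SD, 0.42 over the 22 arrays, and its highest values were 3.38 in WT spleen MI 4 weeks and 3.34 in WT bone marrow MI 1 week. With 1 array per condition, the order of neighbouring conditions has no spread to be set against.

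**Figure D1:**
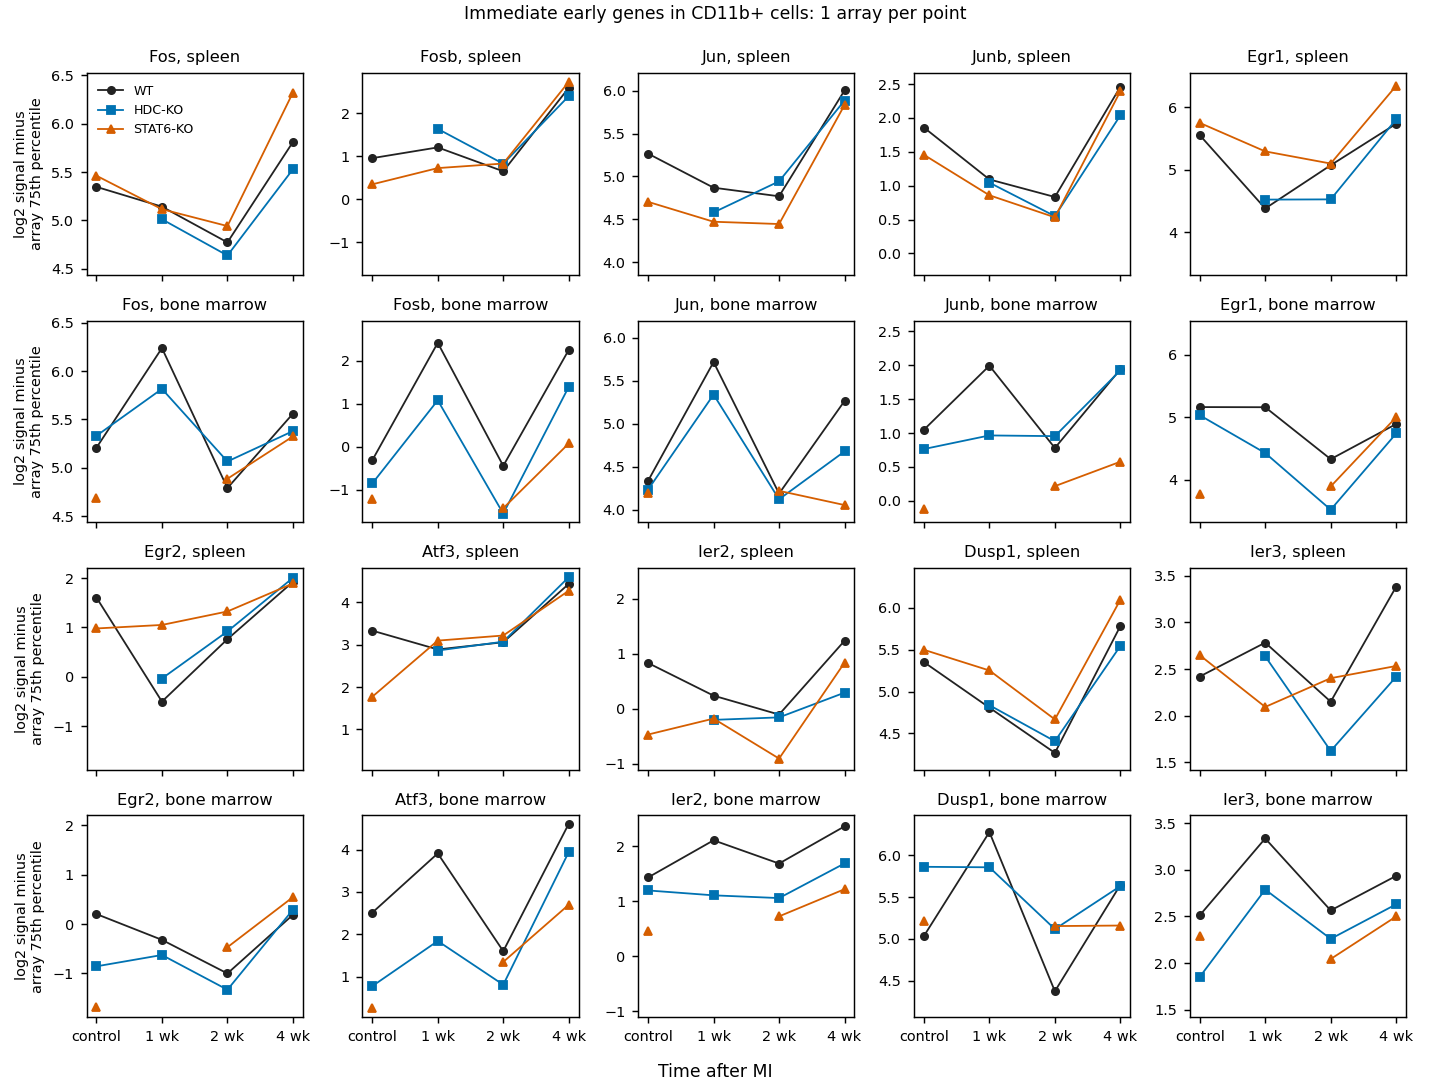
Value of each of the 10 genes (y axis, log2 signal minus the 75th percentile of the array) at each time after MI (x axis), with spleen and bone marrow in separate panels on the same scale for each gene and 1 array per point. The lines join the arrays of 1 slide, and in spleen every line ends higher at 4 weeks than it stood at 2 weeks.

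To compare the tissues, 10 pairs of arrays of the same genotype and time point were fitted with the pair as a block. Of the 10 genes, 4 were higher in spleen (Egr2, Fosb, Atf3, Egr1) and 1 was lower (Ier2), at an adjusted p under 0.05. Over all 27646 genes tested, 22.4% were higher and 32.1% lower, so the share of members called was close to that of all genes. The median difference of the members was 0.46, against -0.17 over all genes. Egr2 differed by 1.505 ± 0.24 (SE, 10 pairs, adjusted p = 1.96e-04) and was higher in spleen in 9 pairs. Fosb differed by 1.19 ± 0.33 (adjusted p = 0.00839), Atf3 by 0.99 ± 0.28 (adjusted p = 0.0107), and Egr1 by 0.79 ± 0.22 (adjusted p = 0.00978). Ier2 differed by -1.22 ± 0.15 (adjusted p = 3.80e-05) and was lower in spleen in 10 of 10 pairs, from -1.86 to -0.38. Jun (0.52 ± 0.24, adjusted p = 0.0846) and Junb (0.40 ± 0.24, adjusted p = 0.187) did not pass the threshold. Neither did Fos (0.00 ± 0.19), Dusp1 (-0.22 ± 0.21), and Ier3 (-0.09 ± 0.13).

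The pair WT MI 1 week had the lowest difference for 9 of the 10 genes. For how many of all genes this pair was lowest, or lower in spleen, was not counted. Dixon's test over the 10 pairs marked 0 of 11 sets of values as holding an outlier. In this pair 0 of the 10 genes were higher in spleen, and the median of the members was -0.96. In the other pairs that median lay between -0.04, in HDC-KO MI 1 week, and 1.34, in STAT6-KO MI 4 weeks. The WT bone marrow array at 1 week had the highest bone marrow value of Fos, Fosb, Jun, Junb, Dusp1, and Ier3. Both arrays of this pair had the lowest share of spots well above background in their tissue. These shares were 71.3% in bone marrow (median of the tissue 78.4%) and 70.4% in spleen (76.4%), and their part was not tested. Without this pair the fit called 6 members, and the median difference was 0.61. The 10 pairs come from 6 slides, so they are not independent of each other. With slide as a random block, or without a block, 3 members were called, Egr1, Egr2, and Ier2. With slide as a random block the limma adjusted p was 0.0985 for Fosb and 0.16 for Atf3.

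**Figure D2:**
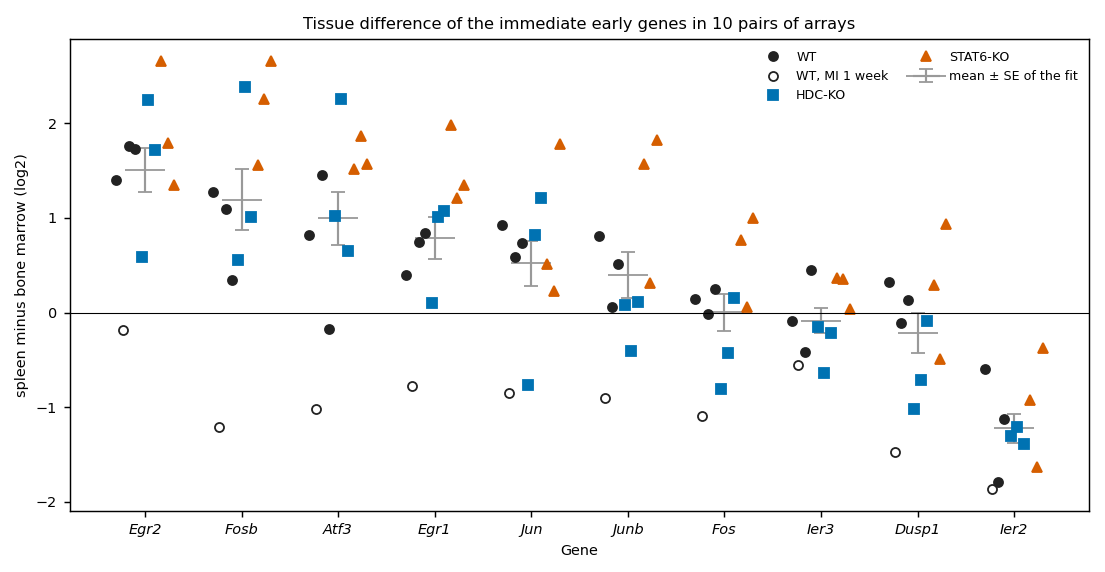
Difference between spleen and bone marrow (y axis, log2) for each gene (x axis), with 1 point per pair of arrays of the same genotype and time point and grey bars for the mean ± SE of the fit over 10 pairs. The open circles, WT at MI 1 week, are the lowest point for 9 of the 10 genes.

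Other genes of the same programme were read from lists of known early response genes and their regulators. Of 28 other early response genes, 10 were higher in spleen and 5 lower, with a median of 0.27. The largest were the MAP kinase phosphatases Dusp4 (2.19 ± 0.23) and Dusp2 (1.76 ± 0.19), the small MAF factor Maff (1.49 ± 0.27), and the orphan nuclear receptor Nr4a3 (1.39 ± 0.33). Of 12 AP-1 partners and EGR co-repressors tested, 4 were higher and 5 lower, among them Batf3 (2.45 ± 0.20), Fosl1 (-2.40 ± 0.24), Jdp2 (-1.63 ± 0.11), and Batf2 (1.62 ± 0.14). Of 22 upstream kinases and factors, 4 were higher and 12 lower, and Mapk3, which encodes the kinase ERK1, was the most different at -2.23 ± 0.13. Of 12 early inflammatory targets of NF-kB, 4 were higher, including Cd83 (3.51 ± 0.15), and 2 were lower, including Tnf (-1.30 ± 0.17). Of 9 heat shock genes, 5 were higher, led by Hsph1 (1.52 ± 0.20), and 0 were lower.

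Cell type markers differed between the tissues as well. Macrophage and monocyte markers were higher in spleen for 8 of 8 genes, and their summed linear level was 91.8 to 176 in spleen against 42.1 to 67.0 in bone marrow. Neutrophil granule genes were lower in spleen for 7 of 7 genes (105 to 227 against 264 to 470), as were 4 of 6 mature neutrophil genes (109 to 279 against 244 to 366). Itgam itself was lower in spleen by 1.47 ± 0.14 on the log2 scale (adjusted p = 5.42e-06). B cell markers were higher for 5 of 5 genes (18.4 to 71.8 against 1.63 to 26.1), NK cell markers for 3 of 3 genes (3.30 to 29.0 against 0.67 to 2.73), and dendritic cell markers for 3 of 4 genes (6.76 to 13.7 against 1.74 to 3.73). T cell markers were mixed, with 3 of 5 genes higher and 1 lower, and their sum was 6.17 to 19.2 in spleen against 13.2 to 23.6 in bone marrow. The part of cell type in the tissue differences of the members was not tested.

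Across time after MI the highest spleen array of each of the 10 genes was a 4-week array. The share of all genes for which this held was not counted. From 1 to 4 weeks 9 members were higher on all 3 spleen slides, as were 41.9% of all genes. The step from 2 to 4 weeks was chosen after the values were seen and is given as a description, with no test. In spleen 10 of the 10 genes were higher at 4 weeks than at 2 weeks on all 3 slides, as were 39.8% of all genes. In bone marrow 9 of the 10 were higher on all 3 slides, as were 21.0% of all genes, and the exception was Jun. On all 6 slides 9 members were higher, against 7.32% of 27734 genes. The median over the members of the mean step was 1.18 in spleen and 0.72 in bone marrow, against 0.19 and 0.04 over all genes. On the WT spleen slide Junb went from 0.83 at 2 weeks to 2.46 at 4 weeks, on the HDC-KO slide from 0.55 to 2.04, and on the STAT6-KO slide from 0.53 to 2.39. Fosb went from 0.65 to 2.59, from 0.83 to 2.40, and from 0.83 to 2.73 on the same slides. In both, as in the other members, every 4-week spleen array was above every 2-week spleen array, by the least in Ier3 (2.42 against 2.40). The share of all genes for which this held was not counted. In bone marrow Atf3 had the largest mean step, 2.49 ± 0.99 (SD, 3 slides), followed by Fosb at 2.38 ± 0.77. Ier3 had the smallest, 0.40 ± 0.05.

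In spleen the 3 arrays of 4 weeks lay above all 8 others for 7 members, Fos, Fosb, Jun, Junb, Egr2, Atf3, and Dusp1, against 6.79% of 27652 genes. With median scaling this held for 4 members and with quantile normalization for 5. In bone marrow it held for 0 members, against 1.04% of genes. Between 1 and 2 weeks all 10 genes were lower at 2 weeks on both bone marrow slides that had these time points, as were 35.3% of all genes. On the WT slide Fosb went from 2.41 to -0.44, Jun from 5.72 to 4.19, and Dusp1 from 6.28 to 4.37, and the median step over the members was -0.98 on the mean of the slides. The WT array of 1 week had the lowest share of spots well above background in bone marrow, 71.3%, and its part was not tested.

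**Figure D3:**
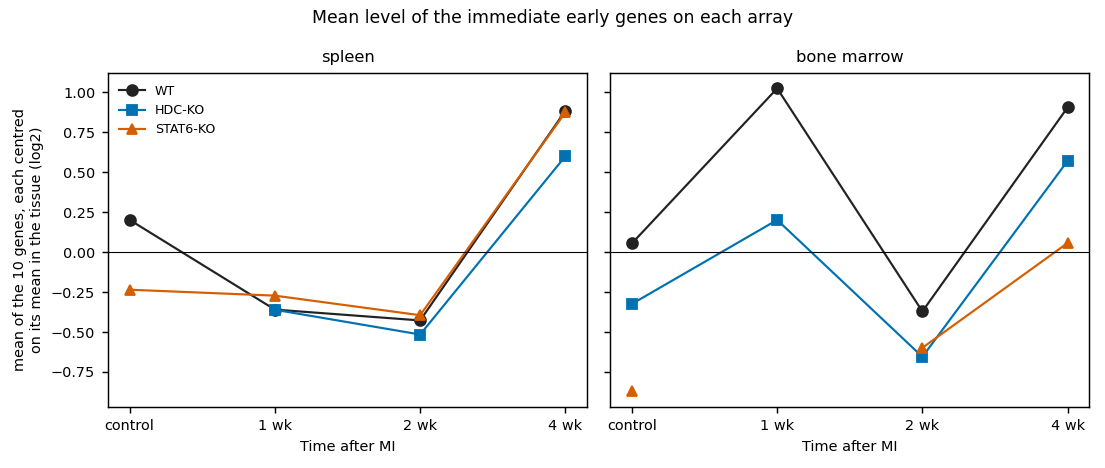
Mean of the 10 genes on each array (y axis, log2, each gene centred on its mean over the 11 arrays of the tissue) at each time after MI (x axis), with 1 array per point. Spleen stood between -0.52 and -0.39 at 2 weeks and between 0.60 and 0.89 at 4 weeks, and in bone marrow WT MI 1 week was highest at 1.03 and STAT6-KO control lowest at -0.87.

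The scale of the arrays moved with this step. The 75th percentile of the array was lower at 4 weeks than at 2 weeks on 5 of 6 slides, and its part in the step was not tested. On the WT spleen slide it was nearly the same (1605.1 and 1637.8), and the median step of the members there was 1.29. On the STAT6-KO bone marrow slide it was higher at 4 weeks (1762.5 against 1344.1), and the median step was smallest, at 0.48. Macrophage markers of spleen summed to 91.8 to 146 at 2 weeks and to 105 to 176 at 4 weeks, and mature neutrophil markers to 109 to 192 and to 195 to 232. The mature neutrophil sums of the 2 time points did not overlap, while those of the neutrophil granule genes did (105 to 186 and 115 to 214). Dendritic cell sums did not overlap either (7.32 to 9.30 and 9.49 to 12.0), and the part of these markers in the step was not tested.

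Against the control arrays, the fits over the 11 arrays of a tissue called few members. The 3 time points share the control arrays, which were 2 in spleen and 3 in bone marrow. At 4 weeks the fitted difference was above 0 for all 10 genes in spleen (median 0.68) and in bone marrow (median 0.60), but 0 passed the threshold in either tissue. Of all genes, 61.0% were above 0 in spleen and 54.0% in bone marrow. Slide by slide, 9 members were higher than control on both spleen slides, as were 35.2% of all genes. On all 3 bone marrow slides 6 members were higher, as were 19.5% of all genes. Ier3 was higher on 1 of 2 spleen slides, and Egr1 and Dusp1 on 1 of 3 bone marrow slides each. Of all genes, 0% were called at 4 weeks in spleen and 0% in bone marrow, where limma gave 2295 and 5188 genes an unadjusted p under 0.05. These included 6 members in each tissue, and the methods' Student test with adjustment called 0. The largest were Atf3 in bone marrow, 2.57 ± 0.43 (adjusted p = 0.0723), and Fosb in bone marrow, 2.03 ± 0.30 (adjusted p = 0.0712). Fosb went from -0.31 to 2.25 on the WT slide, from -0.85 to 1.39 on the HDC-KO slide, and from -1.21 to 0.08 on the STAT6-KO slide. In spleen Fosb was higher by 1.86 ± 0.29 (adjusted p = 0.260) and Atf3 by 1.87 ± 0.38 (adjusted p = 0.380). When both tissues were fitted together with slide as a term, 3 members passed at 4 weeks, against 2.49% of all genes. They were Atf3 (2.25, adjusted p = 0.00594), Fosb (1.99, adjusted p = 0.0104), and Ier2 (0.74, adjusted p = 0.0497).

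At 2 weeks 2 members fell below control in spleen, Junb and Dusp1, against 2.05% of all genes. Junb stood at 1.86 and 1.46 in the WT and STAT6-KO control arrays and at 0.83, 0.55, and 0.53 in the WT, HDC-KO, and STAT6-KO arrays of 2 weeks. The groups did not overlap, and the difference was -0.97 ± 0.18 (adjusted p = 0.0421). Dusp1 stood at 5.35 and 5.50 in the control arrays and at 4.27, 4.41, and 4.67 at 2 weeks, a difference of -0.91 ± 0.17 (adjusted p = 0.0418). The median of the members was -0.43, against -0.13 over all genes. With median scaling or normexp 0 members were called, and the median of all genes was 0.12 with median scaling. Leaving out the WT, HDC-KO, or STAT6-KO arrays also left 0 members called. In bone marrow at 2 weeks 0 members and 0% of all genes were called, with 2024 genes of all at an unadjusted limma p under 0.05 and 0 of them members.

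At 1 week the median of the members was above control in bone marrow and below it in spleen. In bone marrow the fitted difference from control was above 0 for all 10 members and for 55.2% of all genes. The median of the members was 0.72 against 0.06 over all genes, and 0 members passed the threshold, against 0.148% of all genes. This fit holds the STAT6-KO control, which had no 1-week partner. On the WT and HDC-KO slides, 6 members were higher at 1 week on both, as were 39.9% of all genes. Egr1 was lower on both, with a mean step of -0.30, as were 23.9% of all genes. Fosb came closest, at 2.23 ± 0.35 (adjusted p = 0.0699), with 2.41 in the WT array and 1.08 in the HDC-KO array against -0.31, -0.85, and -1.21 in the control arrays. The groups did not overlap. In spleen 3 of the 10 were higher than control, as were 37.1% of all genes, so the members were split much as all genes were. The median of the members was -0.29 against -0.16 over all genes, and 0 members passed, against 7.90% of all genes. The lowest adjusted p there were those of Egr1 (-0.80 ± 0.23, adjusted p = 0.0711) and Junb (-0.61 ± 0.18, adjusted p = 0.0758). With median scaling the median of the spleen members was 0.00 and that of all genes 0.13. Without the STAT6-KO arrays 1 member was called in spleen. Among the related genes, Nr4a2, an orphan nuclear receptor, was lower in spleen at 1 week (-1.91 ± 0.27) and 2 weeks (-1.34 ± 0.27), and so was Elk4, an ETS partner of serum response factor (-1.88 ± 0.32 and -1.62 ± 0.32). At 1 week 2 more upstream genes were called, Crem, a cAMP-responsive factor, lower (-1.32 ± 0.33) and Mapk3 higher (1.16 ± 0.24). In the other comparisons with control 0 genes of these 5 lists were called.

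Between the genotypes, members were called in bone marrow for STAT6-KO only. Ier2, Fosb, and Junb were lower than in WT, 3 of 10 members against 0.631% of 27082 genes, and the median of the members was -0.54 against 0.07 over all genes. Ier2 stood at 1.43, 2.10, 1.68, and 2.36 in WT (control and 1, 2, and 4 weeks) and at 0.46, 0.72, and 1.22 in STAT6-KO (control and 2 and 4 weeks). Its groups did not overlap, and the difference was -1.09 ± 0.16 (adjusted p = 0.0154). Junb stood at 1.05, 1.99, 0.78, and 1.94 in WT and at -0.12, 0.22, and 0.58 in STAT6-KO, again without overlap (-1.15 ± 0.25, adjusted p = 0.0487). Fosb stood at -0.31, 2.41, -0.44, and 2.25 in WT and at -1.21, -1.43, and 0.08 in STAT6-KO, with overlap between time points (-1.41 ± 0.29, adjusted p = 0.0421). Atf3 had the largest difference but did not pass (-1.60 ± 0.42, adjusted p = 0.0809). Dusp1 did not pass either (0.04 ± 0.29, adjusted p = 0.954). The fit on the WT and STAT6-KO arrays alone called 0 members and 0 genes in all, and leaving out the arrays of control, 2 weeks, or 4 weeks also left 0 members.

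Markers moved with this comparison. The sum of the neutrophil granule genes was 378 to 470 in STAT6-KO bone marrow and 264 to 393 in WT, that of the plasma cell genes 7.92 to 16.6 and 1.58 to 2.74, and that of Itgam 52.4 to 57.8 and 34.3 to 51.1. The macrophage sum was 52.0 to 56.2 in STAT6-KO, within the WT range of 42.1 to 67.0. The T cell sum was 14.9 to 15.3 in STAT6-KO and 15.9 to 23.6 in WT, although 2 of its 5 genes, Cd4 and Cd8a, were called higher in STAT6-KO, and Pax5 of the B cell list was called lower. The part of these markers in the differences of Ier2, Fosb, and Junb was not tested. Among the related lists, Icam1, an adhesion molecule, was lower in STAT6-KO bone marrow (-1.19 ± 0.18, adjusted p = 0.0154), and Ccn1, a matrix protein gene, was higher (1.18 ± 0.23, adjusted p = 0.0368). Nab2, a co-repressor of EGR factors, was higher in STAT6-KO in bone marrow (3.95 ± 0.25) and spleen (2.54 ± 0.18). Nab2 and Stat6 are neighbours on chromosome 10, and their RefSeq gene models overlap at the ends.

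In spleen 0 members differed between STAT6-KO and WT, against 1.97% of all genes. Over all 26398 genes, 6062 had an unadjusted limma p under 0.05, and so did 4 members. They did not go one way, since Ier2 (-0.73 ± 0.23, adjusted p = 0.124) and Jun (-0.36 ± 0.14) were lower and Egr1 (0.44 ± 0.17) and Dusp1 (0.33 ± 0.13) higher. The tissue difference itself was compared between the genotypes. All 10 members had a larger spleen minus bone marrow difference in STAT6-KO than in WT, as did 43.2% of all genes. The median of the members was 0.77, but 0 passed the threshold, against 0.347% of all genes (lowest adjusted p = 0.251, Fosb). The Fosb difference between tissues averaged 0.38 over the WT pairs and 2.16 over the STAT6-KO pairs. These means do not cover the same time points, since STAT6-KO had no pair at 1 week. The pair WT MI 1 week, at -1.21, lowered the WT mean. The other WT pairs lay between 0.34 and 1.27, and the STAT6-KO pairs between 1.56 and 2.65. Without the pair WT MI 1 week the median of the members for STAT6-KO minus WT was 0.39.

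HDC-KO and WT differed in no member past the threshold. In bone marrow 9 of the 10 genes were lower in HDC-KO and 1 was higher, and of all genes 49.2% were higher. The median of the members was -0.43 against -0.01 over all genes, and 0 members were called, against 0.443% of all genes. An unadjusted limma p under 0.05 was found for 5753 of all 27082 genes. Among the members it was found for 4, Ier2 (-0.63 ± 0.15), Fosb (-0.96 ± 0.26), Atf3 (-1.31 ± 0.37), and Ier3 (-0.45 ± 0.14), with a lowest adjusted p of 0.120. Atf3 stood at 0.78, 1.84, 0.81, and 3.94 in HDC-KO bone marrow (control and 1, 2, and 4 weeks) and at 2.51, 3.91, 1.60, and 4.61 in WT, so it was lower at each time point. In spleen the median was -0.15, and 0 members were called, against 2.82% of all genes. Without adjustment, 0 members had a limma p under 0.05, against 5978 of 26398 genes. Ier2 had the lowest adjusted p there (-0.57 ± 0.26, adjusted p = 0.236). The change of the tissue difference in HDC-KO had a median of 0.06 with 0 members called, against 0.987% of all genes, and Atf3 had the largest value (1.04 ± 0.58, adjusted p = 0.448).

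**Figure D4:**
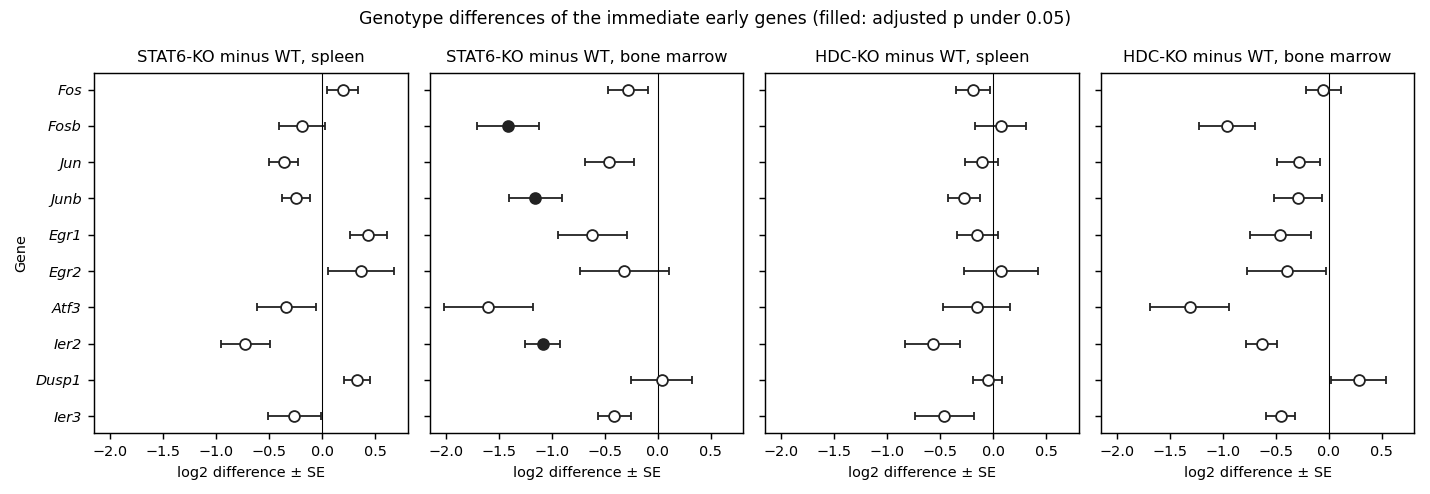
Difference of each gene between a knockout and WT within a tissue (x axis, log2, mean ± SE from the limma fit over 11 arrays), with filled points for an adjusted p under 0.05. Fosb, Junb, and Ier2 in STAT6-KO bone marrow are the 3 filled points, and 9 of the 10 genes lie below 0 in both knockouts in bone marrow.

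The 10 genes varied together across the arrays. With each gene centred on its mean in each tissue, Pearson's r over the 22 arrays was above 0 for 45 of 45 pairs of members, with a median of 0.66. The arrays share slides and scaling, so r is given as a description. The median was 0.65 within spleen and 0.65 within bone marrow (11 arrays each). The closest pairs were Fos with Dusp1 (r = 0.90), Fosb with Atf3 (0.89), and Junb with Ier2 (0.87). Egr1 and Egr2 were closest to each other (0.79), and Egr2 was the farthest from the rest, with r = 0.22 against Ier3. Junb followed the mean of the other 9 most closely (r = 0.90) and Egr2 least (0.64).

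**Figure D5:**
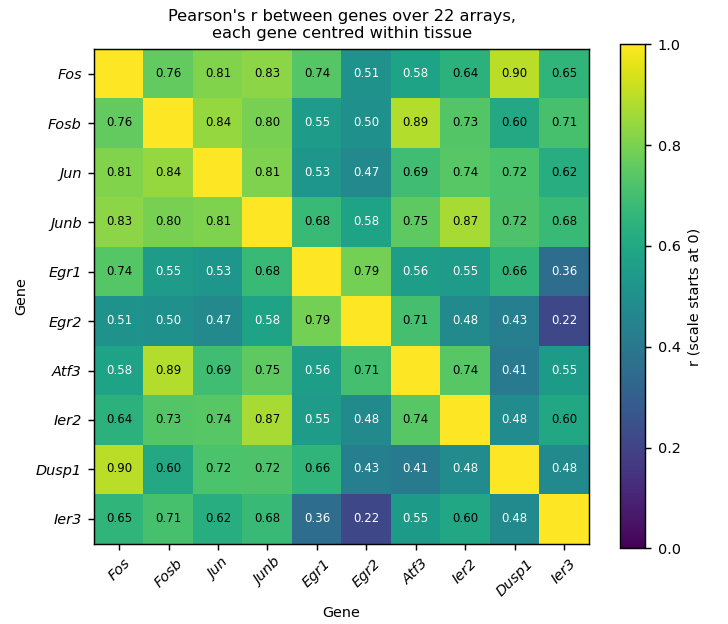
Pearson's r between each pair of the 10 genes over 22 arrays, each gene centred within tissue, with genes on both axes and colour from 0 to 1. All 45 pairs lie above 0, and the row of Egr2 holds the lowest value of 6 other genes.

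Of 20514 genes well above background on every array, the 10 non-members most like the mean of the members were Zfp622 (r = 0.94), Ccrl2 (0.91), Ier5 (0.91), Rgs2 (0.89), Ccnl1 (0.89), Rhob (0.89), Sqstm1 (0.89), Trib1 (0.88), Map1lc3a (0.89), and Btg2 (0.89). Ier5, Rhob, Trib1, and Btg2 belong to the list of other early response genes. Ccrl2 is an atypical chemokine receptor of activated leukocytes, Rgs2 a regulator of G protein signalling, Ccnl1 an RNA processing cyclin, and Sqstm1 and Map1lc3a belong to autophagy. Over all genes r had a median of 0.07, with 10th and 90th percentiles of -0.44 and 0.53. The median r was 0.80 for 26 other early response genes, of which 24 were above 0, and 0.66 for 11 early NF-kB targets, from Cd83 at 0.36 to Ccl3 at 0.86. It was 0.34 for 11 AP-1 partners and EGR co-repressors, 0.21 for 22 upstream kinases and factors, and 0.23 for 9 heat shock genes. Within the list of partners Ddit3, a stress-induced leucine zipper factor, was closest (0.81) and Atf2, a factor controlled by phosphorylation, was farthest (-0.52).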

How the data were processed

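CD11b+ cells had been pooled from 5 mice per condition and their RNA hybridised to 1-colour Agilent arrays. The deposited tables hold each spot's intensity on a linear scale, background-subtracted by the authors' Feature Extraction software (version 11.0.1.1 per the file headers). GCRMA is named in the submitters' processing notes, and the authors' later normalization was not used. Groups came from the labels. Control spots and 3055 outlier spots were left out, 0 spots were saturated, spots of a probe were averaged, and log2 of the intensity minus the array's 75th percentile was taken. A gene with several probes was read from the one with the highest mean. Accessions were matched to RefSeq (GRCm38.p6), which named 27234 of 39429 probes and 20659 genes. The tables of STAT6-KO bone marrow at 1 week and of the HDC-KO spleen control held too few spots and were left out.

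Genes well above background on at least 2 arrays of a fit were tested with limma 3.58.1 (lmFit, eBayes; R 4.3.3, files read by the fread function of data.table, version 1.17.8) and Benjamini-Hochberg adjustment over all genes tested and a threshold of 0.05. Tissues were compared with the pair as a block, genotypes within a tissue with time as a term, and times with genotype as a term. p-values measure the spread between time points or genotypes, since no condition was repeated. The members and the gene lists were chosen with earlier results of these data known. By rule all 10 members could be named in every comparison, and of each related list up to 4 called genes of largest difference. Members not named in a comparison are covered by its counts and median. For groups said not to overlap, the share of all genes was counted only for the 4-week arrays against all others of a tissue. The 10 non-members of highest r with the mean of the members are named too. Alternatives were normexp (offset 50, on the median spot signal), quantile normalization, median scaling, the 75th percentile over probes well above background on all arrays, a floor, other filters and probe rules, other blocks, both tissues in 1 fit, the methods' Student test with their 2-fold threshold, and leaving out arrays. The fits were tested on simulated data. Likeness and figures used Python 3.11.15, numpy 2.4.6, pandas 2.3.3, and matplotlib 3.10.9.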

Additional observations from a re-analysis of the deposited data

How the results depend on the processing

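With 1 array per condition and pools of mice, the number of arrays limits the precision, and no spread between mice is known. No called member changed sign under the alternatives run, but some medians of the members did, and where a value moved, the cause was not tested. The median changed sign for 1 week in spleen and 2 weeks in bone marrow (values below), for STAT6-KO in spleen (0.00743 without control), and for the tissue difference in HDC-KO (-0.125 with median scaling, and from -0.224 to 0.353 with a pair left out). Between the tissues 5 members were called, and 3 were called without the pair block, with slide as a random block, and by the methods' Student test with and without adjustment. The median of HDC-KO minus WT in spleen moved from -0.153 to -0.317 with median scaling. At 1 week in spleen the median of -0.293 moved to 0.00315 with median scaling and to 0.176 with both tissues in 1 fit, and with a genotype left out it ran from -0.511 to -0.233 with 0 to 1 members called. At 2 weeks in spleen the 2 calls became 1 with quantile normalization and by the unadjusted Student test, and 0 with normexp, median scaling, no filter, both tissues in 1 fit, the adjusted Student test, and each genotype left out (0 to 0). The median there, -0.433, became -0.184 with median scaling and -0.151 with both tissues, and ran from -0.625 to -0.296 with a genotype left out. At 4 weeks in spleen 0 calls became 3 with both tissues and 1 by the unadjusted Student test. In STAT6-KO bone marrow the 3 calls became 1 with normexp and 0 with the 2 genotypes alone and by the adjusted Student test, and ran from 0 to 2 with a time point left out. At 1 week in bone marrow 0 calls became 1 with median scaling, 1 with genes well above background on every array, and 2 by the unadjusted Student test, and ran from 0 to 1 with a genotype left out, and the median became 0.176 with both tissues. At 2 weeks in bone marrow the median of -0.117 ran from -0.378 to 0.0148. At 4 weeks in bone marrow the median of 0.599 became 0.515 with median scaling and 0.712 with both tissues, and 0 calls became 2 with genes well above background on every array, 3 with both tissues, and 2 by the unadjusted Student test. The 7 members whose 4-week spleen arrays lay above all others became 4 with median scaling. Of the 10 genes most like the members, 3 stayed when genes were centred by tissue and genotype. Over all genes, the number called by limma ran widely across the settings other than leaving out arrays in turn. It ran from 6 to 2625 (744 as reported) for HDC-KO and from 4 to 669 (520) for STAT6-KO in spleen, from 20 to 143 (120) and from 0 to 1491 (1250) in bone marrow, and from 0 to 2419 (2086), from 0 to 1013 (593), and from 0 to 689 (0) at 1, 2, and 4 weeks in spleen. In bone marrow it ran from 0 to 1515 (40), from 0 to 20 (0), and from 0 to 689 (0) at these times, and for the tissue difference from 0 to 513 (273) in HDC-KO and from 4 to 331 (96) in STAT6-KO. The Student test lay outside these ranges without adjustment, with 763 genes for STAT6-KO in spleen, 945 for HDC-KO in bone marrow, and 110 at 2 weeks in bone marrow, and between the tissues it called 6203, or 6071 with adjustment, against 15049 by limma. With median scaling the share of calls that were higher went from 20.6% to 57.0% at 1 week and from 8.94% to 48.5% at 2 weeks in spleen, from 73.4% to 52.3% for HDC-KO in spleen, from 86.3% to 67.9% for STAT6-KO in bone marrow, and from 77.7% to 58.6% for the tissue difference in HDC-KO.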
